A study of Mus musculus with 6 samples.

Results

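The microglial genes described here are *Gpr34*, *Trem2*, *Tyrobp*, *Tmem119*, *Olfml3*, *Siglech*, *Sall1*, *Gpr84*, *Cst7* and *Itgax*, 10 of the 55335 genes in the table of expression values. Microglia are the resident macrophages of the brain and spinal cord, and the values come from another kind of macrophage, the bone marrow-derived macrophage (BMDM), which is grown in culture from marrow cells. The list was chosen by the genes' known part in microglia, and it was prompted by measured values, those of *Gpr34*, which was close to 0 in one group of libraries and plainly present in the other. The levels of *Gpr34* are therefore a description and carry no test. The other 9 genes were proposed with this contrast known, so their test values describe these libraries too, and nothing is read from how many of them passed.

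RNA-seq was performed on 6 libraries. All 6 held BMDMs of wild-type genotype by their labels, from marrow cells kept for 7 days with the macrophage growth factor M-CSF at 25 ng/ml and then placed in co-culture with neutrophils for 24 h. The neutrophils were taken by magnetic sorting from the lesion of the injured spinal cord at 3 days post injury (dpi). They came from *Cd177* WT mice for 3 libraries, called WT below, and from *Cd177* KO mice for the other 3, called KO below. *Cd177* encodes a surface protein of neutrophils, and the knockout lies in the neutrophils alone. The study's animals were male, C57BL/6 mice that were adult at 8 weeks and *Cd177*-/- mice whose background and age are not stated. The number of mice behind a library is not given for these cultures. BMDMs were recovered by FACS before RNA extraction, with a gate that is not given in the sources used here. The comparison asks how BMDMs differ after contact with neutrophils that lack CD177. It has no BMDMs without neutrophils and no microglia beside it.

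Microglia share much of their machinery with other macrophages but carry a set of genes that few other macrophages use, kept on in the healthy brain by transforming growth factor beta (TGF-beta) and by transcription factors such as SALL1. TREM2 is a surface receptor for lipids and apolipoproteins. It signals through the adaptor TYROBP (also called DAP12), which recruits the kinase SYK, and microglia near plaques or dying cells use this route to pass from a resting to a disease-associated state. GPR34 is a G protein-coupled receptor for lysophosphatidylserine, a lipid that damaged and activated cells release. Not all 10 genes belong to the resting state. *Gpr84*, *Cst7* and *Itgax* are best known from microglia that have been activated or that surround damage.

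Promoter sequences are shown for 4 genes that stood higher or lower in KO, since these are the stretches from which their transcripts start. RefSeq promoters (GRCm38.p6) were held for 7 of the 10 genes. *Gpr34*, *Tyrobp* and *Tmem119* had no entry. The sequences run 5′ to 3′ on the gene's own strand and end at the last base before the first annotated exon. Capitals mark GGAAGT, the core that ETS-family factors such as the macrophage factor PU.1 bind, on either strand, so that ACTTCC is the same core read on the other strand. The first pair of genes was higher in KO and the second pair was lower.
Trem2, chr17:48346151-48346400, plus strand: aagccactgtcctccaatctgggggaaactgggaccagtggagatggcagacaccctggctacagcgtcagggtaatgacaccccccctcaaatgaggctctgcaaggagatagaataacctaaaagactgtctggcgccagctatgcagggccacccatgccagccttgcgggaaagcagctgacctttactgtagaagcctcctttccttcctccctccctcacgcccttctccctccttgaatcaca
Itgax, chr7:128129300-128129546, plus strand: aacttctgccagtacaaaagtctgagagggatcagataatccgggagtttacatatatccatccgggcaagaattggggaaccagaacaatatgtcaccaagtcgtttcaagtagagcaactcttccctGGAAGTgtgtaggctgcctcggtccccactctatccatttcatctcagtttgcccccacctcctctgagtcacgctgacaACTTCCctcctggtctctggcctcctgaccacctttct
Cst7, chr2:150570165-150570414, plus strand: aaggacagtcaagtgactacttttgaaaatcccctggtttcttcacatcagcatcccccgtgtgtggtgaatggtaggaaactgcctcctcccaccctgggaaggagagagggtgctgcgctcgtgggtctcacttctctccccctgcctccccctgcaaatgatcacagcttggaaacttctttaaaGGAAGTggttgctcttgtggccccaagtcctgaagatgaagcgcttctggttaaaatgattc
Gpr84, chr15:103310613-103310688, minus strand: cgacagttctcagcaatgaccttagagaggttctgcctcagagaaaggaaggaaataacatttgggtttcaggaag
The ETS core stood 62 to 57 bases before the RefSeq start of *Cst7*, and 121 to 116 and 41 to 36 bases before that of *Itgax*. *Gpr84* had one 62 to 57 bases before its RefSeq start, outside the printed stretch. *Trem2* had none in the 250 bases searched. Of 32851 promoters of the same length, 19.7% held this core. The longer PU.1 motif GAGGAAGT, which contains it, was in 2.44% of promoters and in none of the 7. Nor did any of the 7 hold the interferon response motif GAAANNGAA (7.13% of all promoters) or the SMAD motif GTCTAGAC of TGF-beta signalling (0.167%). The motif TCACGTGA of the MiT/TFE lysosome factors (0.785%) was found 57 to 50 bases before the start of *Siglech*. *Siglech* also held the ETS core, 156 to 151 bases before its start. The core was thus present in genes that differed in both directions and in *Siglech*, which stayed near 0 in both groups. A match of letters does not show that a factor binds there.

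Expression values are FPKM, fragments scaled to transcript length and to the total of a library, so levels of different genes can be set side by side. Libraries summed to between 302532 and 340717 FPKM. Low values pointed to between 17600000 and 20200000 fragments per library, although whole fragments could not be recovered. The test was limma on log2(FPKM + 0.5) in the 13367 genes whose mean over the 6 libraries reached 0.5 FPKM. On this scale the changes of low genes are understated. At an adjusted p under 0.05 (Benjamini-Hochberg), 27.1% of them were called higher in KO and 10.5% were called lower. The median log2 fold change of all tested genes was 0.19, so a difference of that size has no direction of its own. With median-of-ratios scaling the median was -0.01, and the split turned from 3619 higher and 1408 lower to 2058 higher and 2259 lower. *Cd177* itself was higher in KO, with 0.544, 0.309 and 0.521 FPKM in WT and 1.79, 1.84 and 2.28 FPKM in KO, against what the labels would give. The sequenced BMDMs carry the intact gene by their labels, and the part of neutrophil RNA in these *Cd177* values was not tested. These values therefore do not check the genotype of either cell type, and WT and KO below mean libraries as labelled.

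The 10 genes ranged from among the most abundant transcripts to none at all. In WT the order of mean levels was *Tyrobp* (570 ± 61.7 FPKM, SD, n = 3 here and below), *Trem2* (86.3 ± 9.62), *Gpr84* (47.0 ± 1.05), *Itgax* (36.3 ± 8.16), *Tmem119* (11.0 ± 1.13), *Cst7* (6.51 ± 0.717) and *Olfml3* (3.68 ± 1.62), and no library of one gene crossed into the range of its neighbour in this order. *Gpr34*, *Sall1* and *Siglech* lay under 0.1 FPKM in every WT library and could not be ranked. In KO the order was *Tyrobp* (771 ± 58.8 FPKM), *Trem2* (138 ± 12.5), *Itgax* (60.5 ± 7.79), *Gpr34* (10.4 ± 1.37), *Tmem119* (8.73 ± 0.742), *Olfml3* (3.88 ± 2.52), *Gpr84* (3.87 ± 0.0245) and *Cst7* (0.570 ± 0.310). There *Gpr34* and *Tmem119* overlapped, as did *Olfml3* and *Gpr84*. *Gpr84* had moved from the third place to the same level as *Olfml3*, and *Gpr34* from the bottom to the fourth. *Tyrobp* had a mean level above that of 99.6% of the tested genes and *Trem2* above that of 97.3%.

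**Figure D1:**
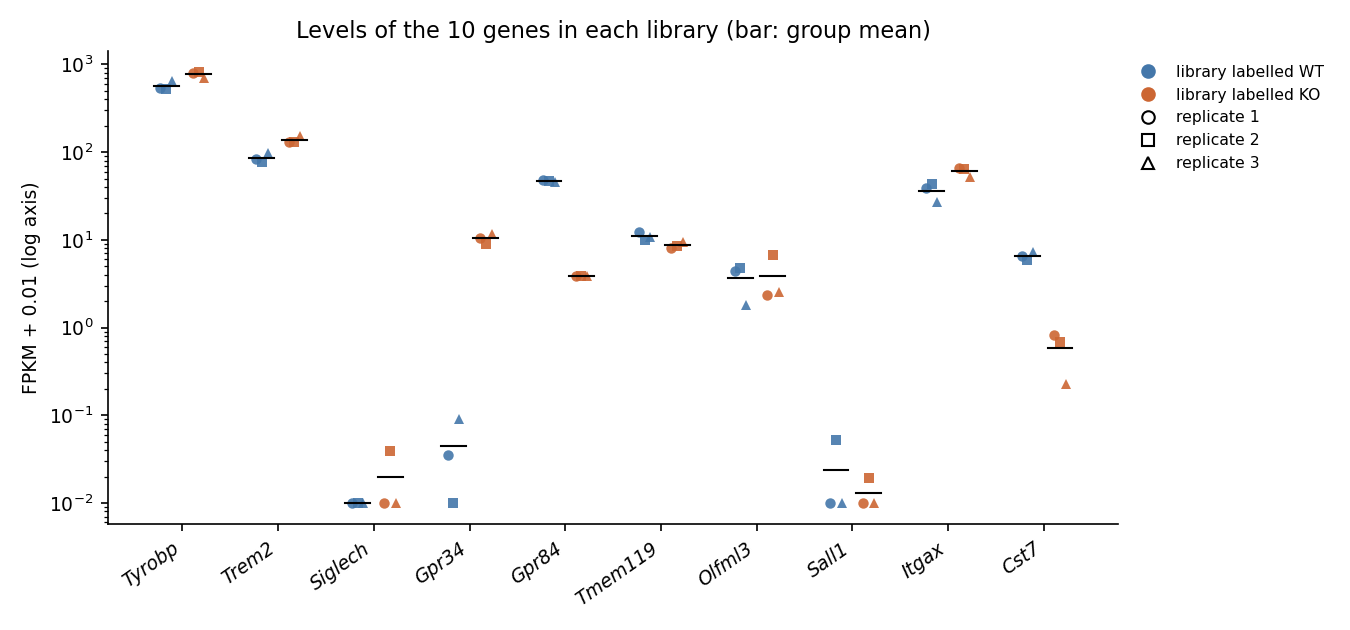
FPKM of the 10 genes in each library, on a log axis after adding 0.01 so that a value of 0 can be drawn. Blue points are WT and orange points are KO libraries, shapes give the replicate number and bars the group means. *Gpr34* is near the bottom in WT and at 9.02 to 11.8 FPKM in KO, *Gpr84* and *Cst7* are lower in KO, and *Sall1* and *Siglech* stay near 0 in all 6.

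Without *Gpr34*, 7 of the other 9 genes reached the filter, and each of these did so in both groups. Of the 7, *Trem2*, *Tyrobp* and *Itgax* were called higher in KO, *Gpr84* and *Cst7* were called lower, and *Tmem119* and *Olfml3* were not called. Beside these counts stand the 27.1% and 10.5% of all tested genes called higher and lower. The median log2 fold change of the 7 was 0.015, beside 0.19 for all tested genes. With median-of-ratios scaling 1 of them was higher and 3 were lower, beside 2058 higher and 2259 lower of all 13367 tested genes. *Sall1* and *Siglech* were under the filter and were not tested.

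*Gpr34* (chromosome X, 13632089 to 13640858, plus strand, GENCODE M21, GRCm38) is the receptor for lysophosphatidylserine. It had 0.0252 FPKM in WT replicate 1, was listed at 0 in WT replicate 2 and had 0.0797 FPKM in WT replicate 3. In KO it had 10.4, 9.02 and 11.8 FPKM. No WT library came near any KO library, and the 3 KO libraries lay within a narrow range. On the log2(FPKM + 0.5) scale the difference was 4.34, a size that the added 0.5 fixes in large part, since the WT values are so low. Among all tested genes *Gpr34* was alone in having at most 0.1 FPKM in every WT library and at least 5 FPKM in every KO library, and the limits of this count were set with its values known. The reverse pattern was held by 2 genes, *Cxcl3* and *Cxcl9*, which encode chemokines.

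*Gpr34* lies inside *Cask*, a gene on the opposite strand that encodes a scaffold protein of cell junctions, and shares no exonic base with it. *Cask* had 3.05, 3.66 and 3.03 FPKM in WT and 3.76, 3.77 and 3.88 FPKM in KO. The log2 fold change of *Cask* was 0.20 (95% interval from limma, -0.04 to 0.45) and was not called. Inside *Cask* and next to *Gpr34* lies a second receptor gene, *Gpr82*, whose ligand is not established. It had 0.00197 FPKM in WT replicate 1, was listed at 0 in the other two WT libraries and had 0.802, 0.679 and 0.598 FPKM in KO. *Gpr82* was thus above 0.01 FPKM in the KO libraries only, although its mean kept it under the filter. The host gene differed little where both genes inside it differed by far more.

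**Figure D2:**
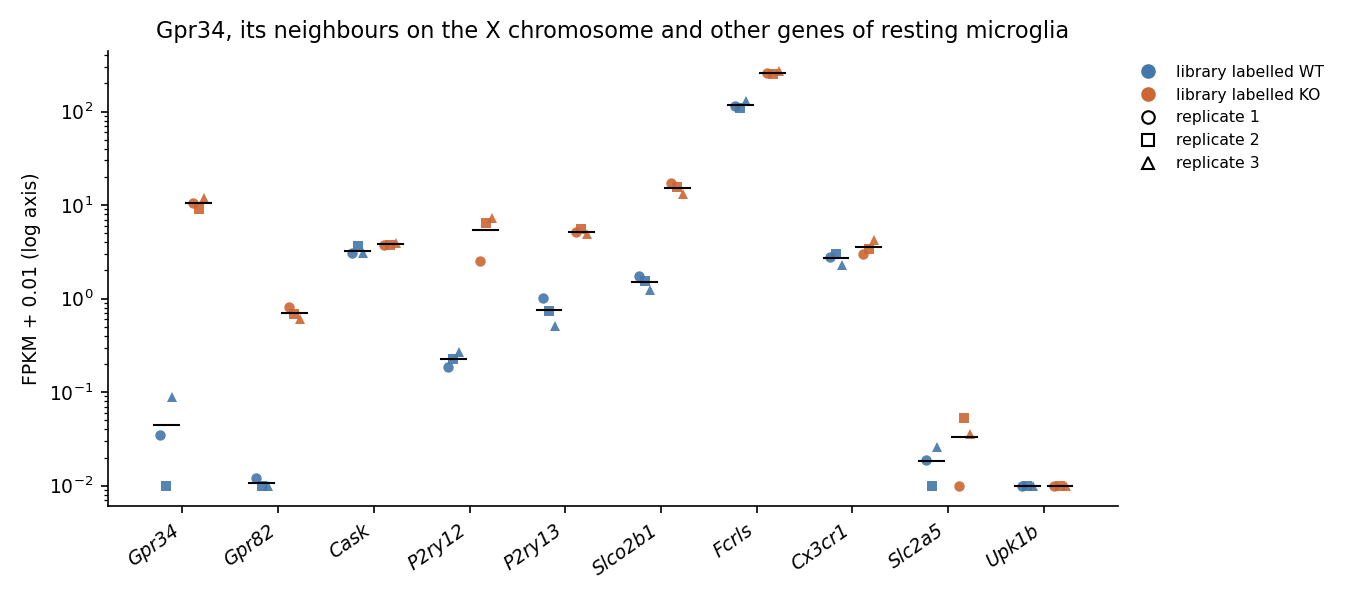
FPKM of *Gpr34*, of *Gpr82* and *Cask* beside and around it, and of other genes of resting microglia, per library on a log axis after adding 0.01, with WT in blue, KO in orange and bars at group means. *Gpr34*, *Gpr82*, *P2ry12*, *P2ry13*, *Slco2b1* and *Fcrls* stand higher in KO without overlap, *Cask* and *Cx3cr1* are close between the groups, and *Slc2a5* and *Upk1b* are near or at 0.

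Patterns over the 6 libraries were compared with that of *Gpr34* by Euclidean distance on log2(FPKM + 0.5), among tested genes. Genes whose symbols are clone names were left out. The closest of the rest were *Ighm* (distance 1.03), *Abca9* (1.59), *Bmp2* (1.86), *Il16* (1.95) and *P2ry12* (2.15). *Ighm* encodes the heavy chain of immunoglobulin M, *Abca9* a lipid transporter, *Bmp2* a growth factor of the TGF-beta family and *Il16* a cytokine. *P2ry12*, the ADP receptor of resting microglia, had 0.177, 0.214 and 0.261 FPKM in WT and 2.52, 6.49 and 7.20 FPKM in KO. KO replicate 1 stood well below the other KO libraries for *P2ry12*, which it did not for *Gpr34*. With 6 libraries in 2 groups, this distance is set mainly by the levels of the groups.

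*Gpr84* (chromosome 15, 103308235 to 103310612, minus strand) encodes a receptor for medium-chain fatty acids that inflammatory stimuli raise in macrophages and microglia. It had 48.0, 47.0 and 45.9 FPKM in WT and 3.90, 3.85 and 3.86 FPKM in KO. The groups were far apart and each was tight, and mean FPKM was 12.1-fold higher in WT. On the log2 scale *Gpr84* differed by -3.44 (standard error 0.07, adjusted p = 1.34e-06, limma), the direction opposite to that of *Gpr34*, the other G protein-coupled receptor in the list. An antisense transcript annotated on the other strand, *Gm49482*, covers 681 of the 1725 exonic bases of *Gpr84* (39.5%), and since no source says that the counting used strand, its reads cannot be told apart from those of *Gpr84* there.

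*Trem2* (chromosome 17, 48346401 to 48354147, plus strand) had 83.6, 78.2 and 96.9 FPKM in WT and 132, 130 and 153 FPKM in KO. Every KO library was above every WT library, and mean FPKM was 1.60-fold higher. Its log2 fold change was 0.68 (standard error 0.11, 95% interval 0.41 to 0.95, adjusted p = 0.00383, limma), which is 0.49 above the median of all tested genes. The call held in each alternative that was run at this threshold.

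*Tyrobp* (chromosome 7, 30413760 to 30417585, plus strand), the adaptor that TREM2 needs, had 543, 526 and 640 FPKM in WT and 795, 815 and 704 FPKM in KO. The groups did not overlap, with WT replicate 3 the highest of its group and KO replicate 3 the lowest. The log2 fold change was 0.44 (95% interval 0.17 to 0.70, adjusted p = 0.0211, limma), only 0.25 above the median of all genes. This call did not hold with median-of-ratios scaling (adjusted p = 0.248) or without WT replicate 1, WT replicate 2, KO replicate 1 or KO replicate 2 (adjusted p between 0.0688 and 0.0884, limma). Set as a share of *Tyrobp* FPKM, *Trem2* stood at 15.4%, 14.9% and 15.1% in WT and at 16.6%, 16.0% and 21.7% in KO. The receptor thus stayed at a small part of its adaptor's level in all libraries, and KO replicate 3 had the highest share.

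*Siglech* (chromosome 7, 55768178 to 55778925, plus strand) encodes a sialic acid-binding receptor of microglia and plasmacytoid dendritic cells that also pairs with TYROBP. It was listed at 0 in 5 libraries and had 0.0291 FPKM in KO replicate 2. *Sall1* (chromosome 8, 89027235 to 89044162, minus strand), the transcription factor that sets microglia apart from other macrophages, was listed at 0 in 4 libraries and had 0.0415 FPKM in WT replicate 2 and 0.00924 FPKM in KO replicate 2. Neither gene was detected above trace level in either group, and at this depth a lower level cannot be told from none.

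*Tmem119* (chromosome 5, 113793729 to 113800516, minus strand) encodes a membrane protein used to stain resting microglia. It had 12.3, 10.04 and 10.7 FPKM in WT and 8.10, 8.55 and 9.55 FPKM in KO, so every KO library lay below every WT library. The log2 fold change was -0.32 (95% interval -0.58 to -0.06) and missed the threshold (adjusted p = 0.0607, limma). *Tmem119* was called lower with median-of-ratios scaling (log2 fold change -0.53, adjusted p = 0.0122) and with upper-quartile scaling (-0.52, adjusted p = 0.0144), and also without replicate 3 of both groups (-0.39, adjusted p = 0.041, limma). The resting microglia marker was thus present in the libraries of both groups and in no alternative was it higher in KO.

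*Olfml3* (chromosome 3, 103722222 to 103738001, minus strand) encodes a secreted matrix protein of the olfactomedin family that TGF-beta raises in microglia. It had 4.45, 4.78 and 1.81 FPKM in WT and 2.31, 6.79 and 2.54 FPKM in KO. The groups overlapped throughout, and the log2 fold change was 0.015 (95% interval -1.07 to 1.10, adjusted p = 0.982, limma). An interval of that width leaves room for a change of about the size of that of *Trem2* in either direction.

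*Cst7* (chromosome 2, 150570415 to 150578944, plus strand) encodes cystatin F, an inhibitor of lysosomal proteases and one of the genes most used to mark disease-associated microglia. It had 6.48, 5.81 and 7.24 FPKM in WT and 0.808, 0.682 and 0.220 FPKM in KO. All KO values were below 1 FPKM, and mean FPKM was 11.4-fold higher in WT. On the log2 scale the change was -2.75, with a standard error of 0.23 (adjusted p = 0.000227, limma).

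*Itgax* (chromosome 7, 128129547 to 128150657, plus strand) encodes CD11c, an integrin subunit of dendritic cells, of many tissue macrophages and of microglia near damage. It had 38.9, 42.9 and 27.2 FPKM in WT and 65.4, 64.7 and 51.6 FPKM in KO. The groups did not overlap, replicate 3 was the lowest of each, and mean FPKM was 1.67-fold higher in KO. The log2 fold change was 0.75 (standard error 0.19, 95% interval 0.30 to 1.19, adjusted p = 0.0198, limma). Its direction was opposite to that of *Cst7* and *Gpr84*, the other listed genes best known from microglia that are activated or surround damage. The call did not hold with median-of-ratios scaling (adjusted p = 0.0577) or without KO replicate 1 (adjusted p = 0.0711) or KO replicate 2 (adjusted p = 0.0697, limma).

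**Figure D3:**
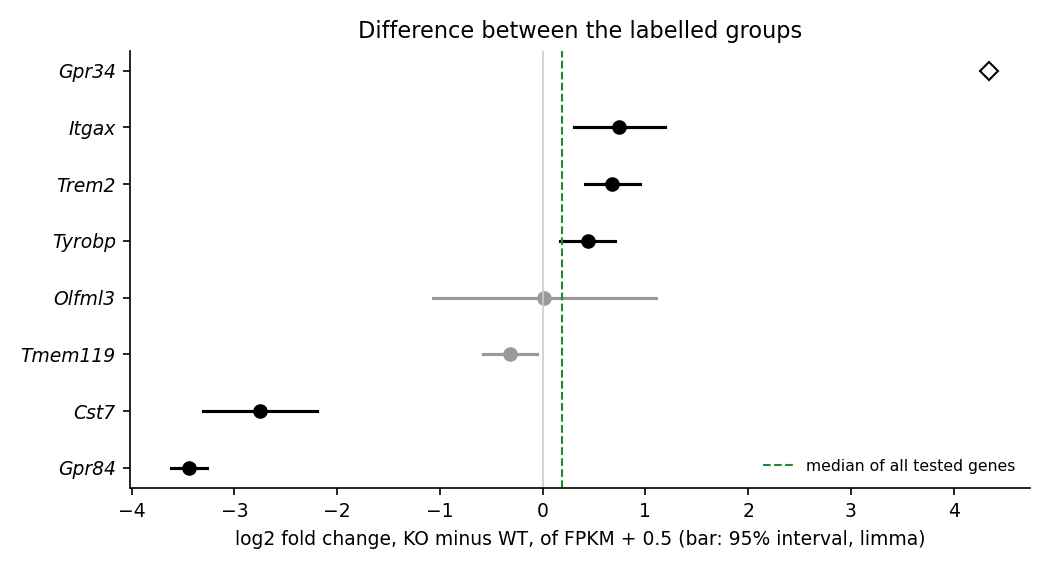
Log2 fold change, KO minus WT, of log2(FPKM + 0.5) for the 8 genes over the filter. Bars are 95% intervals from limma, black where the adjusted p was under 0.05 and grey where it was not, and the open diamond for *Gpr34* has no interval because that gene prompted the list. The dashed line is the median of all tested genes, 0.19, and *Gpr84* and *Cst7* lie far to its left.

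Other genes of resting microglia, 33 in a list drawn from general knowledge, were mostly higher in KO. This list was made with earlier results of these data known, so its counts only describe these libraries. It also holds genes of macrophages in general, such as *Mertk*, which is among the macrophage genes below. Of the 27 tested, 19 were called higher (70.4%, beside 27.1% of all tested genes) and 2 lower (7.41%, beside 10.5%), with a median log2 fold change of 0.72 beside 0.19 for all tested genes. With median-of-ratios scaling 15 were higher and 2 lower, beside 2058 and 2259 of all 13367 tested genes. *P2ry12* passed the filter only through its KO level. *Slco2b1*, an organic anion transporter, had 1.72, 1.55 and 1.21 FPKM in WT and 17.05, 15.4 and 13.2 FPKM in KO (log2 fold change 2.98, adjusted p = 1.7e-05, limma). *P2ry12* followed with 2.93 (adjusted p = 0.000903, limma) and *P2ry13*, another ADP receptor, with 2.20 (adjusted p = 0.000133, limma). The scavenger receptor gene *Fcrls*, among the most specific of microglia, was already at 110 to 129 FPKM in WT and reached 253 to 268 FPKM in KO (log2 fold change 1.14, adjusted p = 0.000148, limma).
*Cx3cr1*, the fractalkine receptor, did not pass, with a log2 fold change of 0.33 (95% interval -0.03 to 0.69). *Cx3cr1* lay between 2.27 and 4.19 FPKM in all libraries. The transporter gene *Slc2a5* and *Upk1b* were at most 0.0431 FPKM anywhere, like *Sall1* and *Siglech*. Of the genes called lower, *Rhob*, a small GTPase, had a log2 fold change of -0.42 and was named after its value was seen. Higher levels were therefore measured for many but not all genes of resting microglia, while several of those that define the cell type stayed near 0.

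Genes of disease-associated microglia were called in both directions. Of 32 tested, 9 were called higher and 9 lower (28.1% each, beside 27.1% and 10.5% of all tested genes), with a median log2 fold change of -0.13. With median-of-ratios scaling 5 were higher and 14 lower, beside 2058 and 2259 of all 13367 tested genes, so the split of all genes shifted too. *Clec7a*, the beta-glucan receptor Dectin-1, had 578, 581 and 628 FPKM in WT and 105, 113 and 112 FPKM in KO, which is a log2 fold change of -2.43 (adjusted p = 3.71e-06, limma), the same direction as *Cst7*. *Lpl*, a lipase that frees fatty acids, had 68.3, 68.1 and 77.9 FPKM in WT and 234, 248 and 284 FPKM in KO, which is a log2 fold change of 1.83 (adjusted p = 3.95e-05, limma). *Cd83*, a surface protein of activated cells, was higher by 1.89 (adjusted p = 1.89e-05, limma). *Cst7* and *Itgax*, which are not counted in this list, also differed in opposite directions.

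The partners of TREM2 and TYROBP were called in both directions as well. Of 30 tested, 8 were called higher (26.7%, beside 27.1% of all tested genes) and 7 lower (23.3%, beside 10.5%), with a median of 0.19, equal to that of all genes. With median-of-ratios scaling 6 were higher and 8 lower, beside 2058 and 2259 of all 13367 tested genes. The 3 that differed most encode other receptors that signal through adaptors of this kind. *Trem1* and *Treml2* passed the filter only through their WT levels. *Trem1*, which amplifies inflammatory signals through the same adaptor, had 3.51, 2.61 and 3.38 FPKM in WT and 0.236, 0.367 and 0.340 FPKM in KO, which is a log2 fold change of -2.17 (adjusted p = 8.97e-05, limma). *Treml4* was lower, with a log2 change of -1.79 (adjusted p = 0.000296, limma), and *Cd300ld* was higher by 1.45 (adjusted p = 0.000199, limma). The direction of *Trem1*, which lies beside *Trem2* in one receptor family, was the reverse of that of *Trem2*. The kinase *Syk*, which TYROBP recruits, had 51.3, 50.8 and 34.8 FPKM in WT and 35.9, 37.1 and 30.4 FPKM in KO, and its log2 fold change of -0.38 (95% interval -0.79 to 0.02) was not called.

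Among transcription factors of microglia and genes of the TGF-beta route, 22 of 24 were tested, 9 were called higher (40.9%, beside 27.1% of all tested genes) and 4 lower (18.2%, beside 10.5%), with a median of 0.20. With median-of-ratios scaling 8 were higher and 6 lower, beside 2058 and 2259 of all 13367 tested genes. *Mef2c* passed the filter only through its KO level. *Maf*, a factor of resident macrophages, had 15.5, 16.8 and 14.8 FPKM in WT and 61.5, 59.1 and 58.0 FPKM in KO, which is a log2 fold change of 1.89 (adjusted p = 1.13e-05, limma). Both receptor genes of TGF-beta were higher, *Tgfbr2* by 1.38 (adjusted p = 0.000506) and *Tgfbr1* by 0.94 (adjusted p = 0.00048, limma). *Smad7*, an inhibitor that TGF-beta signalling itself induces, was lower, with 14.4, 13.6 and 9.48 FPKM in WT and 6.02, 4.25 and 6.11 FPKM in KO (log2 fold change -1.12, adjusted p = 0.00509, limma). The receptors and the feedback inhibitor thus moved in opposite directions. The lineage factor *Spi1*, which encodes PU.1, was not called, with a log2 fold change of 0.09 (95% interval -0.15 to 0.33). *Sall3* and *Sall4*, relatives of *Sall1*, were listed at 0 throughout.

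For the lipid that GPR34 senses, 13 genes were listed and 10 tested. *Cask* and *Gpr82* entered the list as neighbours of *Gpr34*. The rest were listed for the production, breakdown or sensing of lysophosphatidylserine or of related phospholipids, so the counts do not describe this lipid alone. Of the 10, 1 was called higher and 2 lower (27.1% and 10.5% of all tested genes), with a median of -0.001. *Abhd12*, the main lipase that breaks this lipid down, was the only one called higher, with 76.8, 65.8 and 75.5 FPKM in WT and 111, 147 and 154 FPKM in KO (log2 fold change 0.90, adjusted p = 0.00317, limma). *Pla1a*, a phospholipase that forms the lipid, was lower by -0.75 (adjusted p = 0.0374) and the receptor gene *P2ry10b* by -1.28 (adjusted p = 0.00978, limma). The call of *Pla1a* or of *P2ry10b* was lost under several alternatives, among them those without WT replicate 1 or 3 and those without KO replicate 1 or 3. *Abhd16a*, which makes lysophosphatidylserine inside cells, had a log2 fold change of -0.02 (95% interval -0.24 to 0.19). The other receptors for this lipid, *P2ry10* and *Gpr174*, were at most 0.0354 FPKM, which left *Gpr34* in KO and *P2ry10b* in both groups as the ones measured above 1 FPKM.

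**Figure D4:**
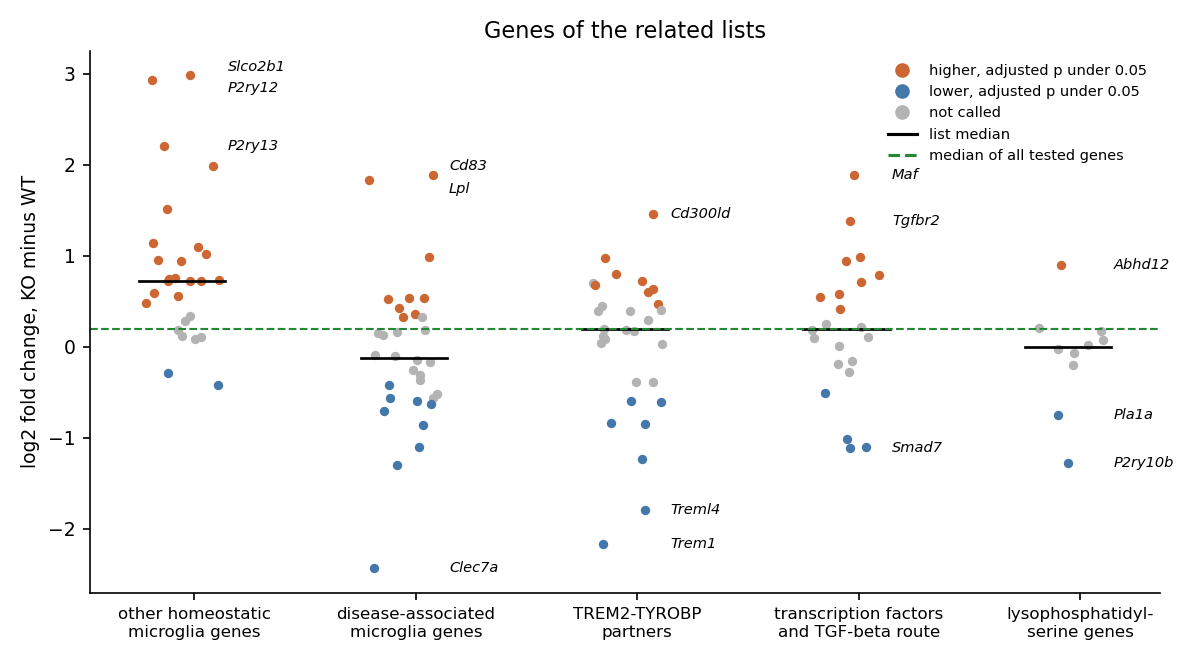
Log2 fold change, KO minus WT, of the tested genes of 5 related lists, with orange for genes called higher, blue for genes called lower and grey for the rest. The horizontal position within a list has no meaning, black bars are list medians (0.72, -0.13, 0.19, 0.20 and -0.001 from left to right) and the dashed line is the median of all tested genes.

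Markers of the sequenced cell type and of cells that a culture could also hold were read beside these results. All 10 macrophage genes were at or above 15.0 FPKM in every library, with a summed level of 6726 to 8089 FPKM in WT and 7488 to 8170 FPKM in KO. Of these 10, *Adgre1*, *Mertk* and *Mrc1* were called higher and *Cd14*, *Fcgr1* and *Msr1* lower (30% each, beside 27.1% and 10.5% of all tested genes). Of the genes that define microglia, *Sall1* and *Siglech* were at or near 0, *P2ry12* was at most 7.20 FPKM, and *Fcrls* and *Tmem119* were present in all 6 libraries, so the list names microglial genes and not microglia. Of 14 spinal cord genes, 12 were under 1 FPKM in every library, and *Snap25*, *Nefl*, *Aqp4*, *Mog* and *Mobp* were listed at 0 in all 6. *Mbp* lay between 4.47 and 6.89 FPKM and was not called. *Aldh1l1* had 0.348 to 0.621 FPKM in WT and 1.37 to 1.64 FPKM in KO, and it was called higher (adjusted p = 0.00262, limma).
Most neutrophil genes were higher in KO. Of 14, 11 were tested, 9 were called higher (81.8%, beside 27.1% of all tested genes) and 1 lower (9.09%, beside 10.5%). *Cxcr2*, one of the 9, passed the filter only through its KO level. The summed level of the 14 was 201.6 to 261.4 FPKM in WT and 555.2 to 570.2 FPKM in KO. *Ly6g* was listed at 0 in WT and had 0.660, 0.547 and 0.403 FPKM in KO. The part of neutrophil RNA in the levels of *Cd177*, *Gpr34*, *Trem2*, *Tyrobp*, *Itgax*, *Cst7* and *Gpr84* was not tested. B lineage genes summed to 1.41 to 2.51 FPKM in WT and 14.9 to 17.1 FPKM in KO, in KO mostly from *Ighm*. Among tested genes without clone names, the pattern of *Ighm* was the closest to that of *Gpr34*. Of 9 such genes only 3 were tested, and all 3 were called higher (beside 27.1% of all tested genes). They were *Ighm*, which passed the filter only through its KO level, *Cd79b* (log2 fold change 1.80, adjusted p = 0.000268) and *Ebf1* (0.65, adjusted p = 0.00729, limma). *Cd79a*, *Ms4a1* and *Pax5* were at most 0.0519 FPKM and *Igll1* was at 0. Genes of conventional dendritic cells, which also express *Itgax*, summed to 23.6 to 34.5 FPKM in WT and 52.2 to 82.7 FPKM in KO. Of these, only 3 of 10 were tested, and all were called higher (beside 27.1% of all tested genes). *Batf3* was among them and passed the filter only through its KO level. *Fscn1* gave most of the sum and *Flt3* was at 0. Under the filter, *Clec9a* (means of 0.541 FPKM in WT and 0.0526 FPKM in KO), *Xcr1* (0.271 and 0.0757 FPKM) and *Ccr7* (0.0834 FPKM and listed at 0) lay lower in KO without overlap. *Zbtb46*, also under the filter, lay higher in KO without overlap (means of 0.113 FPKM in WT and 0.306 FPKM in KO). Plasmacytoid dendritic cell genes, which bear on *Siglech*, summed to 2.77 to 4.98 FPKM in WT and 4.67 to 5.90 FPKM in KO, with *Ly6d*, *Klk1*, *Spib* and *Cd209d* at 0. *Cox6a2* (means of 0.0116 FPKM in WT and 0.627 FPKM in KO) and *Tcf4* (1.26 and 2.49 FPKM) lay higher in KO without overlap. *Cox6a2* was under the filter, *Tcf4* was not called, and *Runx2* overlapped between the groups and was not called. The part of these cells in the results was not tested, and in bulk RNA fewer cells of a type and less RNA per cell cannot be told apart.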

How the data were processed

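RNA-seq values of 6 BMDM libraries were used, 3 co-cultured with *Cd177* WT and 3 with *Cd177* KO neutrophils, by GEO's labels. The values are FPKM as the authors deposited them, one column a library, for 55335 mouse Ensembl identifiers. The submitters' processing notes name fastp 0.17.1, HISAT2 2.1.0, DESeq2 1.18.1 and R 3.4.3 without their roles, and the genome build is not given in the sources used here. The labels and the methods name different extraction reagents, library kits and sequencers. FPKM is relative to each library's total, so a few abundant genes can shift all others. Symbols and positions came from GENCODE M21 (99.7% of identifiers matched) and promoters from RefSeq.

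In the low values of genes with 1 transcript, 37.1% to 40.5% lay within 0.1 of a whole multiple of the smallest step, against 20% by chance, so no count test could be made. The 13367 genes whose mean reached 0.5 FPKM were fitted by limma 3.58.1 (R 4.3.3) on log2(FPKM + 0.5) (eBayes with trend, two-sided, no covariates), adjusted by Benjamini-Hochberg over all of them. The fit was tested on simulated data. Nothing says whether the 3 libraries of a group are separate cultures, so the p-values measure the spread between these libraries, which may be technical. A permutation of 3 against 3 cannot give a p below 0.1.

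Genes named are the 10, the 3 with the largest absolute change in each of 5 related lists, fixed regulators, neighbours and markers, and the 5 closest to *Gpr34*. Those 5 were taken from tested genes, with clone names left out. Some genes that this rule names are not reported here. The members and all lists were chosen with earlier results of these data known, and the ETS core was added after the promoters had been read. Alternatives were pseudocounts of 0.1 and 1, other filters, 3 scalings, a robust variance, a block for the replicate number, leaving out each library, and the study's call rule (fold change above 2, unadjusted p under 0.05). Leaving out replicate 3 of both groups was chosen after seeing the data. Python 3.11.15 with pandas 2.3.3 and matplotlib 3.10.9 served the rest.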

Additional observations from a re-analysis of the deposited data

How the results depend on the processing

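The call of *Trem2* as higher and those of *Gpr84* and *Cst7* as lower held in every alternative at an adjusted p under 0.05, and 2 or 3 of the genes other than *Gpr34* were lower in each, *Tmem119* being the third. The 3 called higher became 1 without the filter and with median-of-ratios scaling, and between 1 and 3 with a library left out. Without the filter the adjusted p was 0.093 for *Tyrobp* and 0.0528 for *Itgax* (limma), and with upper-quartile scaling it was 0.255 for *Tyrobp*. *Olfml3* changed sign, to -0.182 under median-of-ratios and -0.168 under upper-quartile scaling, to values between -0.425 and 0.263 with a library left out, and -0.174 without replicate 3 of both groups. The difference of *Gpr34* was 6.32 with a pseudocount of 0.1, 3.46 with a pseudocount of 1 and 5.81 with every library scaled to the same larger sum. Of the resting microglia genes the 2 called lower became 1 with the same scaling to one sum and between 0 and 2 with libraries left out. Disease-associated genes went from 9 higher and 9 lower to 5 and 14 under median-of-ratios scaling, beside 2058 and 2259 of all tested genes. Under upper-quartile scaling 5 were higher, beside 2122 of all tested genes. Lysophosphatidylserine genes went from 1 higher and 2 lower to 2 and 1 without the filter, and to between 1 and 2 lower with libraries left out. The study's call rule, with its fold limit, gave 0 of the genes other than *Gpr34* as higher, 8 and 0 resting microglia genes as higher and lower, 2 and 3 disease-associated genes, 1 and 3 TREM2 and TYROBP partners, 2 and 3 transcription factor and TGF-beta genes, and 0 and 1 lysophosphatidylserine genes. The share of all tested genes that the study's rule calls was not computed, so nothing is read from these last counts. The scalings shift all genes by construction, and the cause of the other changes was not tested.

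Replicate numbers are shared between the groups, but no source ties them to a batch. Same-numbered libraries' deviations from their group means correlated at 0.116, 0.036 and 0.264. Those of differently numbered libraries correlated at between -0.233 and 0.16. These values do not settle whether the numbers pair the libraries, and the main fit used no pairing. WT replicate 1 correlated best with KO replicate 2 (0.16). With the replicate number as a block, 4253 genes were higher and 1681 lower, beside 3619 and 1408 without it. With the block, 1 lysophosphatidylserine gene was lower in place of 2. Without counts, the precision of values under about 0.1 FPKM is unknown, and *Sall1*, *Siglech* and *Gpr34* in WT rest on such values.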
